A study of Mus musculus with 10 samples.

Results

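The comparison described here is the day by acetate interaction, meaning the effect of acetate at d9 minus the effect of acetate at d5 on the same gene. It asks which responses of glucose-restricted CD8 T cells to acetate differed between prolonged and acute restriction. Its members are all 10 libraries of the series, assigned to 4 groups by their titles, and 13182 of the 53465 genes in the count files that passed the filter on low counts. The groups were d9 with acetate (d9_Acetate, n = 3), d9 without acetate (d9_1mM, n = 3), d5 with acetate (d5_Acetate, n = 2) and d5 without acetate (d5_1mM, n = 2). All came from OT-I transgenic C57BL/6 mice, whose CD8 T cells recognise an ovalbumin peptide. Cells of spleens and peripheral lymph nodes were activated with that peptide and interleukin-2 in 25 mM glucose. After 3 days they were switched to 1 mM glucose, which lasted 120 h in the d9 groups and 24 h in the d5 groups. Acetate-treated cells received 5 mM sodium acetate over the last day. At d5 acetate therefore covered the whole restriction, whereas at d9 it followed days of restriction without it. All 4 groups received PMA and ionomycin for a final 4 h, so every value below is that of restimulated cells. These times do not add up to day 5 or day 9, and the labels do not explain it. The labels give no age, and do not say whether replicates were separate cultures or mice, so the spread behind each p-value is that between libraries and may be technical.

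Acetate enters metabolism as acetyl-CoA, which is made from it by the synthetases ACSS2 in cytosol and nucleus and ACSS1 in mitochondria. Acetyl-CoA feeds the tricarboxylic acid cycle, fatty acid and sterol synthesis, and the acetylation of histones. Activated CD8 T cells normally draw most of this carbon from glucose, and their production of interferon-gamma and other effector proteins is known to depend on it. Restimulation with PMA and ionomycin drives protein kinase C and calcium signalling directly, bypassing the T cell receptor, and induces early transcription factors and cytokine genes.

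Libraries held 22.97 to 24.66 M counts at d9 and 16.59 to 17.97 M at d5. Whether the days were processed together is not given in the labels, so depth, any such batch and time in culture cannot be told apart between days. Day separated the libraries on the first principal component, with 66.2% of the variance. At d9, replicate 2 with acetate and replicate 1 without acetate stood apart from their groups. Ribosomal protein genes took 15.3% and 15.64% of their counts, against 11.31 to 12.85% in the other 4 d9 libraries, and 10.9 to 14.19% at d5. The 14.19% was that of d5_Acetate replicate 2, against 11.98% in its replicate 1. Its value on the second principal component was the lowest of all, at -32.91, against -26.08 and -19.94 in those 2 d9 libraries. Results are given below with and without the 2 d9 libraries where they move, and d5_Acetate replicate 2 was kept there. In bulk RNA, fewer cells of a type and less RNA per cell cannot be told apart.

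No gene passed the test of a difference between the acetate effects of d9 and d5. The edgeR quasi-likelihood test called 0 of 13182 genes (0% of those tested) at a Benjamini-Hochberg adjusted p of 0.05. The smallest adjusted p was 0.0648, and 10 genes lay under 0.1. At an unadjusted p under 0.05 there were 1015 genes, 7.7% of those tested, of which 543 (4.12%) had a higher and 472 (3.58%) a lower log2 effect at d9 than at d5. limma-voom called 0 and the DESeq2 Wald test 102 genes, 0.774% of those tested, 75 of them higher. DESeq2 gave no adjusted p to 1278 of the 13182 genes. Without the 2 d9 libraries that stood apart, edgeR called 255 of 12935 genes (1.97%), 226 higher and 29 lower. Among them were 78 of the 102 DESeq2 calls. These 2 libraries were picked by their own values, so calls without them, here and below, are not independent support. The d9_1mM pair left, replicates 2 and 3, differed least of all pairs within groups (chi-square per degree of freedom 5.6, against 25.2 to 70.3 in the others). With so few libraries the test is coarse. In simulated data with these group sizes, 72.3% of genes with a 4-fold interaction were recovered, 10.6% at 2-fold and 1.56% at 1.5-fold. There all groups shared 1 mean per gene, changes were put in d9_Acetate only, and no library was made to stand apart. Recovery in the real data may therefore differ.

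Taken alone, acetate changed 4 genes at d9 (0.0303% of those tested) and 201 genes at d5 (1.52%). At an unadjusted p under 0.05 it was 15.4% at d9 and 19.8% at d5. The 4 at d9 were Il10, Csf2, Gm17767 and Gm36723, which rose with acetate. Of the 201 at d5, 87 rose (0.66%) and 114 fell (0.865%). With 1 d5 library left out its group has a single library, which is then assumed to vary like the other groups. In such fits the d5 calls moved: without d5_Acetate replicate 1, d5_Acetate replicate 2 or d5_1mM replicate 2 there were 0, and without d5_1mM replicate 1 there were 10. A call at d5 and none at d9 does not show that the effects differed, and the interaction is the test of that. Of the 87 genes that rose at d5, 80 had an effect of the same sign at d9, with medians of 0.38 at d9 and 0.99 at d5 on the log2 scale. Of the 114 that fell, 85 had the same sign at d9, with medians of -0.18 at d9 and -1.01 at d5. Since these genes were chosen by their d5 values, the medians are a description only.

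Across all genes tested the log2 effects had an SD of 0.38 at d9 and 0.55 at d5. Their median SE was 0.18 at d9 and 0.22 at d5, where each group had 2 libraries, and its part in the spread and in the sign counts below was not tested. Their Pearson correlation was 0.27 and the Spearman correlation 0.33, across genes that are not independent replicates. The effect exceeded 2-fold in size for 355 genes at d9 and 826 at d5. Effects of opposite sign were seen for 36.8% of all genes. Among the 1015 genes at an unadjusted p under 0.05, 727 had opposite signs, 252 had the same sign with the larger effect at d5, and 36 had the same sign with the larger effect at d9. That split follows in part from the way the interaction is formed and was given no test.

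**Figure D1:**
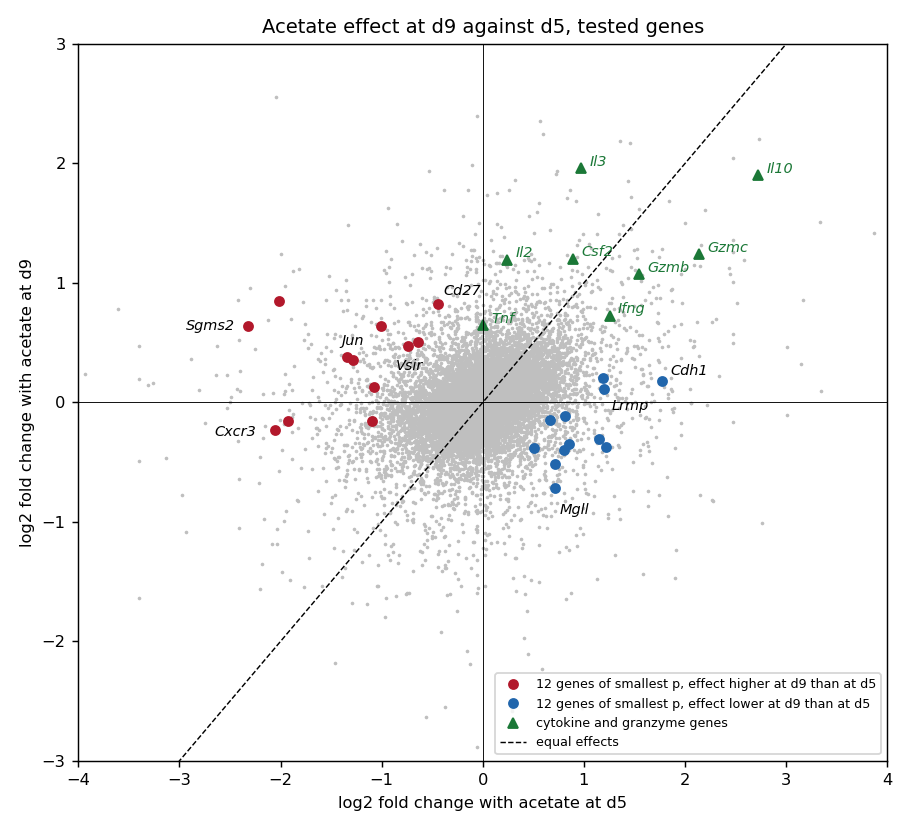
Log2 fold change with acetate at d9 (vertical) against that at d5 (horizontal) for the 13182 tested genes, grey points, with 15 genes outside the axes. Red and blue mark the 12 genes of smallest unadjusted interaction p in each direction and green triangles cytokine and granzyme genes. Red points lie left of 0 on the d5 axis, blue points right of 0, and the green triangles at or above 0 on both axes.

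The genes with the smallest interaction p among those of at least moderate expression, 12 in each direction, had their larger acetate effects mostly at d5. None passed the adjusted threshold, and all are given as measured. In the higher group all 12 had negative acetate effects at d5, and in the lower group all 12 had positive ones. At d9 the effects were smaller in size in 22 of the 24 genes and of the opposite sign in 18. Each of the 24 kept its sign and an unadjusted p under 0.05 in all 22 alternative settings. Without the 2 d9 libraries that stood apart, 22 of them passed the adjusted threshold in edgeR, with adjusted p between 0.00356 and 0.0465. The exceptions were Ly6g5b with 0.0558 and Hpn with 0.0607. In DESeq2 with all libraries all 24 passed. The 24 were picked by their p in the same libraries that these settings refit, so these counts are a description and no independent support.

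Jun (ENSMUSG00000052684, chr4:95049034-95052222, minus strand, GRCm38), a subunit of the AP-1 transcription factor, had CPM (counts relative to library size, TMM-scaled) of 57.9, 57.3 and 73.2 in d9_Acetate and 47.6, 49.4 and 48.1 in d9_1mM. At d5 it had 15.9 and 12.7 CPM in d5_Acetate, against 31.9 and 40.5 CPM in d5_1mM. All d9 libraries with acetate were above those without it, while both d5 libraries with acetate were below those without it. Jun fell with acetate at d5 (log2 -1.34 ± 0.18 SE, edgeR adjusted p = 0.0113), and its d9 effect was 0.38 ± 0.14. Its log2 interaction was 1.72 ± 0.23 (95% interval 1.22 to 2.22, edgeR adjusted p = 0.0648).

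Lipid enzymes were found in both directions. Sgms2, a sphingomyelin synthase, had 1.56, 1.65 and 0.81 CPM in d9_Acetate, 0.896, 0.804 and 0.87 in d9_1mM, 1.46 and 1.47 in d5_Acetate, and 6.95 and 7.71 in d5_1mM. Only the d5 libraries without acetate were high, and the d9 groups overlapped. The Sgms2 interaction was 2.96 ± 0.41 on the log2 scale (edgeR adjusted p = 0.0648), with a fall at d5 of -2.32 (adjusted p = 0.0112).

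Mgll (ENSMUSG00000033174, chr6:88724412-88828360, plus strand), the lipase that cleaves monoacylglycerols, had 19.3, 18.5 and 14.9 CPM in d9_Acetate and 30.3, 29.5 and 26.9 in d9_1mM. It had 7.73 and 7.78 CPM in d5_Acetate and 5.08 and 4.38 in d5_1mM. Here acetate libraries were the lower ones at d9 and the higher ones at d5, with no overlap on either day. Non-overlap alone is common, at 18.7% of tested genes at d9 and 59% at d5. Mgll had the smallest p of the lower group (log2 interaction -1.43 ± 0.22, interval -1.92 to -0.94, edgeR adjusted p = 0.078), with effects of -0.72 at d9 and 0.71 at d5, neither past the threshold.

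Dgat2, which makes triglyceride from diacylglycerol, followed the same order. Its CPM were 11.1, 12.3 and 11.8 in d9_Acetate, 14.2, 17.9 and 18.4 in d9_1mM, 6.17 and 6.31 in d5_Acetate, and 3.81 and 3.80 in d5_1mM. The interaction of Dgat2 was -1.23 ± 0.23 on the log2 scale (edgeR adjusted p = 0.134), with effects of -0.52 at d9 and 0.71 at d5.

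**Figure D2:**
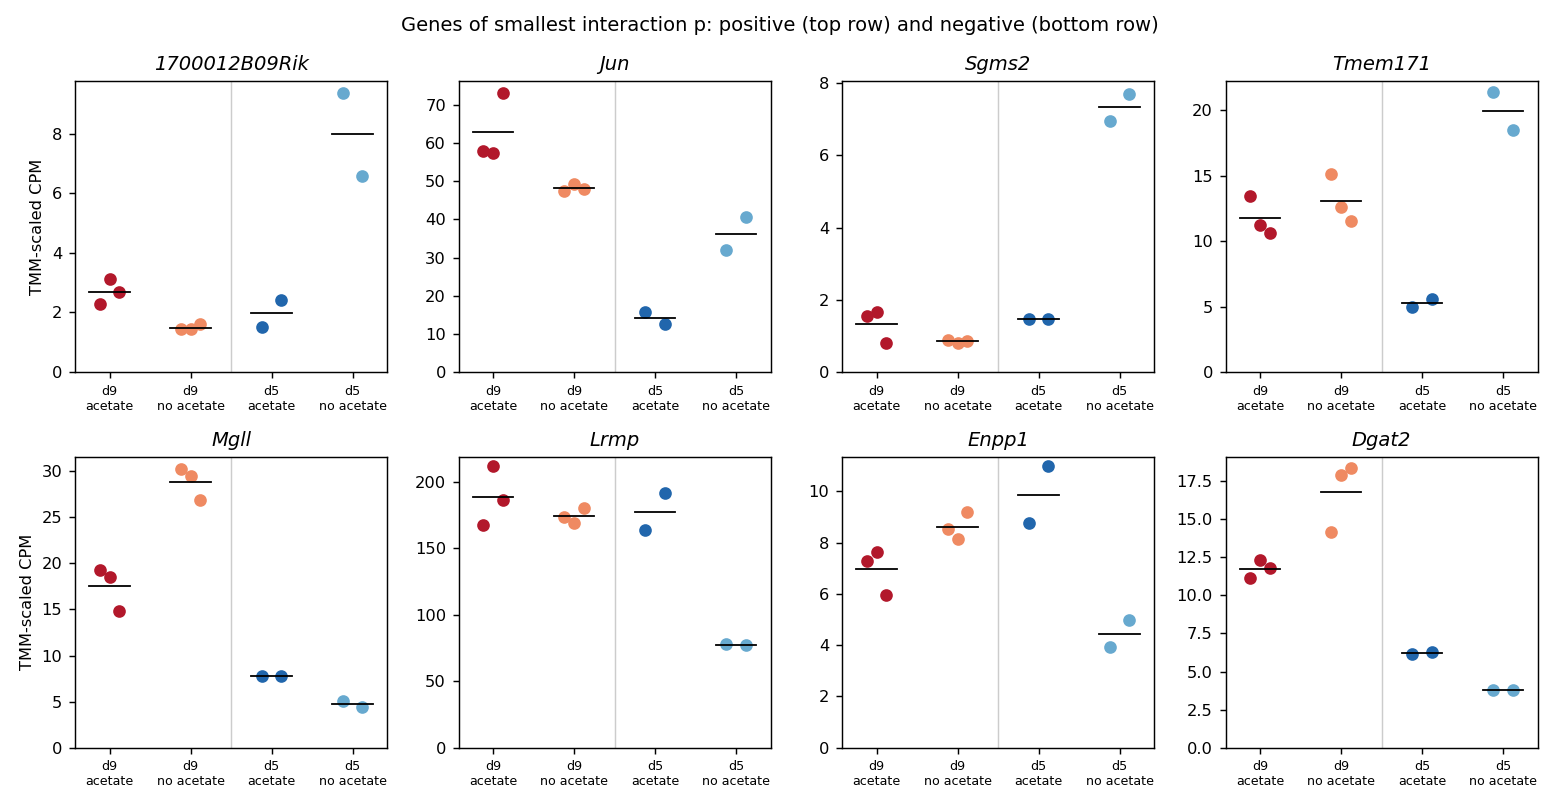
TMM-scaled CPM per library (points) and group means (lines) for the 4 genes of smallest unadjusted interaction p with a positive (top) and a negative (bottom) log2 interaction, d9 left and d5 right of the grey line. In the top panels d5 libraries without acetate are the highest of the d5 pair, and in the bottom panels they are the lowest.

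Among receptors, Vsir, which encodes the inhibitory molecule VISTA, had 319, 363 and 391 CPM in d9_Acetate and 283, 246 and 242 in d9_1mM. At d5 it had 113 and 112 CPM in d5_Acetate, against 205 and 171 in d5_1mM. Acetate libraries were the higher ones at d9 and the lower ones at d5. Vsir fell with acetate at d5 (log2 -0.74, edgeR adjusted p = 0.0373), its d9 effect was 0.47, and its interaction was 1.21 ± 0.18 (adjusted p = 0.0706).

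Cd27, a costimulatory receptor of the TNF receptor family, had 56.8, 73.3 and 81.7 CPM in d9_Acetate and 37.4, 39.8 and 42.8 in d9_1mM. It had 97.1 and 86.4 CPM in d5_Acetate and 133 and 116 in d5_1mM. Its effects were 0.82 at d9 and -0.44 at d5 (log2), neither past the threshold, and its interaction was 1.26 ± 0.22 (edgeR adjusted p = 0.134). Cd27 thus had the same order of libraries as Vsir on both days.

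Cxcr3, the receptor for interferon-induced chemokines, differed in another way, being low at d9 in both groups. Its CPM were 2.19, 2.06 and 2.86 in d9_Acetate, 2.33, 2.54 and 3.48 in d9_1mM, 11.4 and 7.63 in d5_Acetate, and 38.3 and 40.7 in d5_1mM. The d9 groups overlapped and the d5 groups did not. Cxcr3 fell with acetate at d5 (log2 -2.05, edgeR adjusted p = 0.00826), with -0.23 ± 0.23 at d9 and an interaction of 1.82 ± 0.33 (adjusted p = 0.134).

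Of the rest of the higher group, Emp1, a tetraspan membrane protein, had 85.1, 86.8 and 69.8 CPM in d9_Acetate, 78.4, 59.2 and 51.3 in d9_1mM, 64.4 and 70.4 in d5_Acetate, and 173 and 156 in d5_1mM. It fell at d5 (log2 -1.29, edgeR adjusted p = 0.0179), and its interaction was 1.64 ± 0.25 (adjusted p = 0.0706). The d9 groups of Emp1 overlapped. Srgap3, a GTPase-activating protein, had an interaction of 1.65 ± 0.25 and effects of 0.64 at d9 and -1.01 at d5. Tmem171, a transmembrane protein gene, had an interaction of 1.77 ± 0.25 with -0.15 at d9 and -1.92 at d5. 1700012B09Rik had 2.86 ± 0.37, with 0.85 at d9 and -2.02 at d5. Pgghg, which removes glucose from collagen-type disaccharides, Ypel3 and the organic anion transporter gene Slco4a1 had interactions of 1.20, 0.94 and 1.15.

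In the lower group, Lrmp, an endoplasmic reticulum membrane protein of lymphocytes, had 168, 212 and 187 CPM in d9_Acetate, 174, 170 and 180 in d9_1mM, 164 and 191 in d5_Acetate, and 77.8 and 77.2 in d5_1mM. Only the d5 libraries without acetate were low. Lrmp rose with acetate at d5 (log2 1.20, edgeR adjusted p = 0.00826), its d9 effect was 0.11 ± 0.11, and its interaction was -1.08 ± 0.17 (adjusted p = 0.0976). Lrmp shares exon bases with genes on the opposite strand, as Jun, Srgap3 and Mgll do. Whether reads were counted by strand is not given in the labels, so such pairs are uncertain.

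Also in the lower group, Enpp1, which cleaves extracellular ATP, rose at d5 (log2 1.15, edgeR adjusted p = 0.0303), with -0.30 at d9 and an interaction of -1.46 ± 0.26. Entpd5, a nucleoside diphosphatase of the endoplasmic reticulum, had -0.89 ± 0.18, with -0.39 at d9 and 0.51 at d5. Il4i1, a secreted amino acid oxidase, rose at d5 (log2 0.81, adjusted p = 0.0224) with an interaction of -0.92 ± 0.17, but its exons overlap Nup62 on the same strand, so its counts are uncertain. Mfng, a glycosyltransferase that modifies Notch, and Fgr, a Src family kinase, also rose at d5, by 0.67 and 1.19 (adjusted p = 0.0303 and 0.0134). Their interactions were -0.81 ± 0.15 and -0.99 ± 0.21. Tesc, a calcium-binding protein, Ly6g5b, and Hpn, a membrane serine protease, had -1.20, -1.21 and -1.60.

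Cdh1, encoding E-cadherin, had interaction values of opposite sign on the log2 and CPM scales. Its CPM were 33.4, 26.5 and 36.8 in d9_Acetate, 30.5, 26.7 and 28.3 in d9_1mM, 2.07 and 2.21 in d5_Acetate, and 0.772 and 0.467 in d5_1mM. The log2 interaction was -1.59 ± 0.34 (edgeR adjusted p = 0.175), where a fold of 3.41 at d5 was set against 1.13 at d9. In CPM, acetate libraries exceeded the others by 3.73 at d9 and 1.52 at d5, so the difference of differences (d9 minus d5) was 2.21 ± 3.21 CPM (SE), which is within its error. Over all tested genes the 2 scales differed in sign for 1054 genes, 8.0%.

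Effector genes mostly had positive acetate effects on both days, and none passed the adjusted threshold for the interaction. Il10, encoding an anti-inflammatory cytokine, had 82.2, 117 and 86.1 CPM in d9_Acetate, 31.1, 23.1 and 22.1 in d9_1mM, 7.12 and 8.31 in d5_Acetate, and 1.16 and 1.17 in d5_1mM. Acetate libraries were higher on both days without overlap. Il10 rose with acetate on both days, by 1.90 at d9 and 2.72 at d5 on the log2 scale (edgeR adjusted p = 0.00473 and 0.00714). Its log2 interaction was -0.82 (95% interval -1.56 to -0.08, unadjusted p = 0.0334, adjusted p = 0.615), whereas the gain in CPM was larger at d9, by 63.1 ± 11.4 SE.

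Ifng, the gene of interferon-gamma, had 951, 1046 and 768 CPM in d9_Acetate, 544, 553 and 577 in d9_1mM, 1169 and 987 in d5_Acetate, and 463 and 439 in d5_1mM. The groups did not overlap on either day, with a fold of 1.65 at d9 and 2.39 at d5. Ifng rose at d5 (log2 1.26, edgeR adjusted p = 0.00976) and its d9 effect of 0.72 did not pass (adjusted p = 0.0833). The log2 interaction was -0.53 (interval -0.98 to -0.09, unadjusted p = 0.0233, adjusted p = 0.552), and the CPM gain was also smaller at d9, by 263 ± 123 SE.

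Tnf and Il2 had values in the other direction. Tnf, encoding tumour necrosis factor, had 631, 785 and 580 CPM in d9_Acetate, 414, 421 and 443 in d9_1mM, 413 and 339 in d5_Acetate, and 351 and 399 in d5_1mM. Acetate libraries were higher at d9 and overlapped the others at d5. The Tnf interaction was 0.64 on the log2 scale (interval 0.18 to 1.10, edgeR unadjusted p = 0.0111, adjusted p = 0.483). The growth factor gene Il2 had 58.0, 86.9 and 61.9 CPM in d9_Acetate, 35.4, 23.1 and 31.9 in d9_1mM, 199 and 224 in d5_Acetate, and 133 and 225 in d5_1mM. Its interaction was 0.95 (interval 0.17 to 1.74, adjusted p = 0.544), with the d5 groups overlapping.

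Csf2 and Il3, encoding growth factors of myeloid cells, had positive log2 interactions. Csf2 had 306, 311 and 261 CPM in d9_Acetate, 123, 135 and 123 in d9_1mM, 439 and 396 in d5_Acetate, and 200 and 249 in d5_1mM. It rose on both days (log2 1.20 at d9 and 0.89 at d5, edgeR adjusted p = 0.00473 and 0.021). The Csf2 interaction of 0.31 had an interval of -0.10 to 0.71, which includes 0, and its CPM gain at d9 minus that at d5 was -27.2 ± 36.3 (SE). Il3 had an interaction of 0.99 (interval 0.02 to 1.95, adjusted p = 0.64) and a CPM gain at d9 minus that at d5 of -9.64 ± 9.41 (SE).

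Of the cytotoxic granule genes, Gzmb, a granzyme, had 9314, 11761 and 10768 CPM in d9_Acetate, 6193, 4498 and 4434 in d9_1mM, 3259 and 3842 in d5_Acetate, and 1314 and 1115 in d5_1mM. Acetate libraries were above the others on both days. Gzmb rose at d5 (log2 1.55, edgeR adjusted p = 0.0112) and had 1.07 at d9 (adjusted p = 0.0674). Its interaction was -0.47 (interval -1.04 to 0.09), while the CPM gain was 3237 ± 965 SE larger at d9. Gzmc had -0.90 (interval -1.62 to -0.18, adjusted p = 0.527) and a CPM gain 264 ± 198 larger at d9. Granzyme genes are close paralogs, so their counts can share reads. Prf1, encoding perforin, had 0.17 (interval -0.53 to 0.87).

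**Figure D3:**
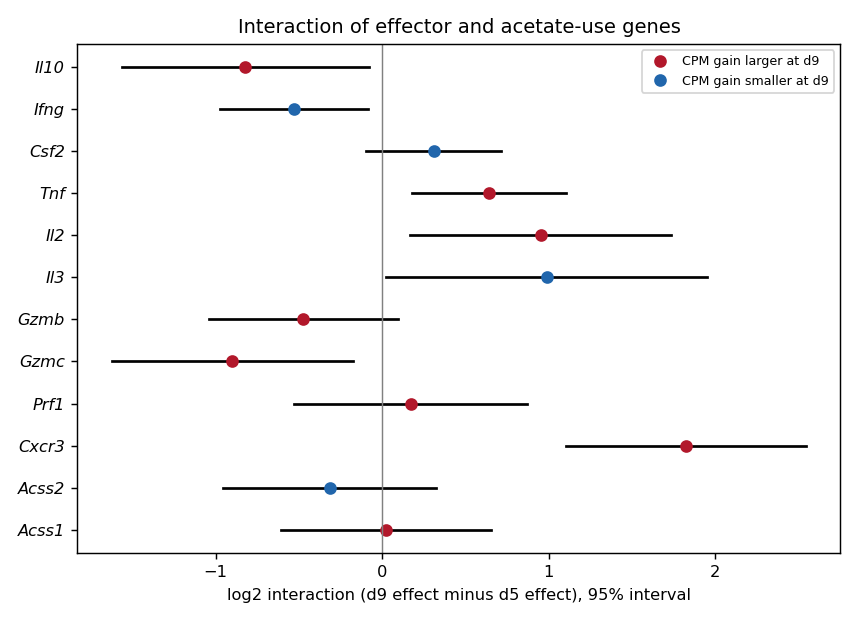
Log2 interaction (d9 effect minus d5 effect) with its 95% interval for 12 effector and acetate-use genes, coloured by whether the gain in CPM was larger (red) or smaller (blue) at d9. The interval of Cxcr3, 1.10 to 2.54, lies farthest above 0, and Il10, Gzmb and Gzmc are negative in log2 with a larger CPM gain at d9.

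Over whole lists, no member of any list passed the adjusted threshold for the interaction in edgeR with all libraries, so lists are described by unadjusted p under 0.05 beside the background of 4.12% higher and 3.58% lower. The log2 interaction was positive for 6440 of all tested genes (48.9%), which is the background for counts of signs. Without the 2 d9 libraries that stood apart the background was 11.1% higher and 5.78% lower. It was 2.62% and 1.97% without d5_1mM replicate 2, 4.21% and 2.73% without d5_Acetate replicate 1, 2.33% and 2.34% without d5_Acetate replicate 2, 3.1% and 2.59% without d9_Acetate replicate 3, and 4.15% and 3.46% without d9_1mM replicate 3.

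Adjusted calls within the lists were made in other settings. Without the 2 d9 libraries 36 of 943 listed genes passed in edgeR (3.82%, against 1.97% of all genes), 33 of them higher. Among them were Vcl (adjusted p = 0.0103), Bach2 (0.016), Rela (0.0174), Ptpn22 (0.018), Btg1 (0.0185), Ctsw (0.0188), Ccl5 (0.0223), Cd44 (0.024), Myb (0.0258) and Ifnar2 (0.039), whose functions are given with their lists. In DESeq2 with all libraries 21 of 944 passed (2.22%, against 0.774% of all genes), 16 of them higher, among them Myb (adjusted p = 0.000553), Vcl (0.00163), Smtn (0.00378), Cd86 (0.0106), Btg1 (0.0117), Ctsw (0.0139), Ifnar2 (0.0269) and Hsp90b1 (0.0407).

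Effector cytokines and chemokines, 32 of 35 tested, had 9 higher and 4 lower members and a median of 0.14, against -0.01 over all genes. Smallest in p were the chemokine genes Ccl5 (1.23 ± 0.36) and Ccl9 (1.04 ± 0.30). Without d5_1mM replicate 2 the counts were 3 higher and 0 lower, and without d5_Acetate replicate 1 they were 5 and 3. Cytotoxic granule genes, all 26 tested, had 0 higher and 2 lower members, Ctsw, a cathepsin (-0.79 ± 0.17), and Gzmc. Their median was -0.25, and -0.07 without the 2 d9 libraries that stood apart.

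**Figure D4:**
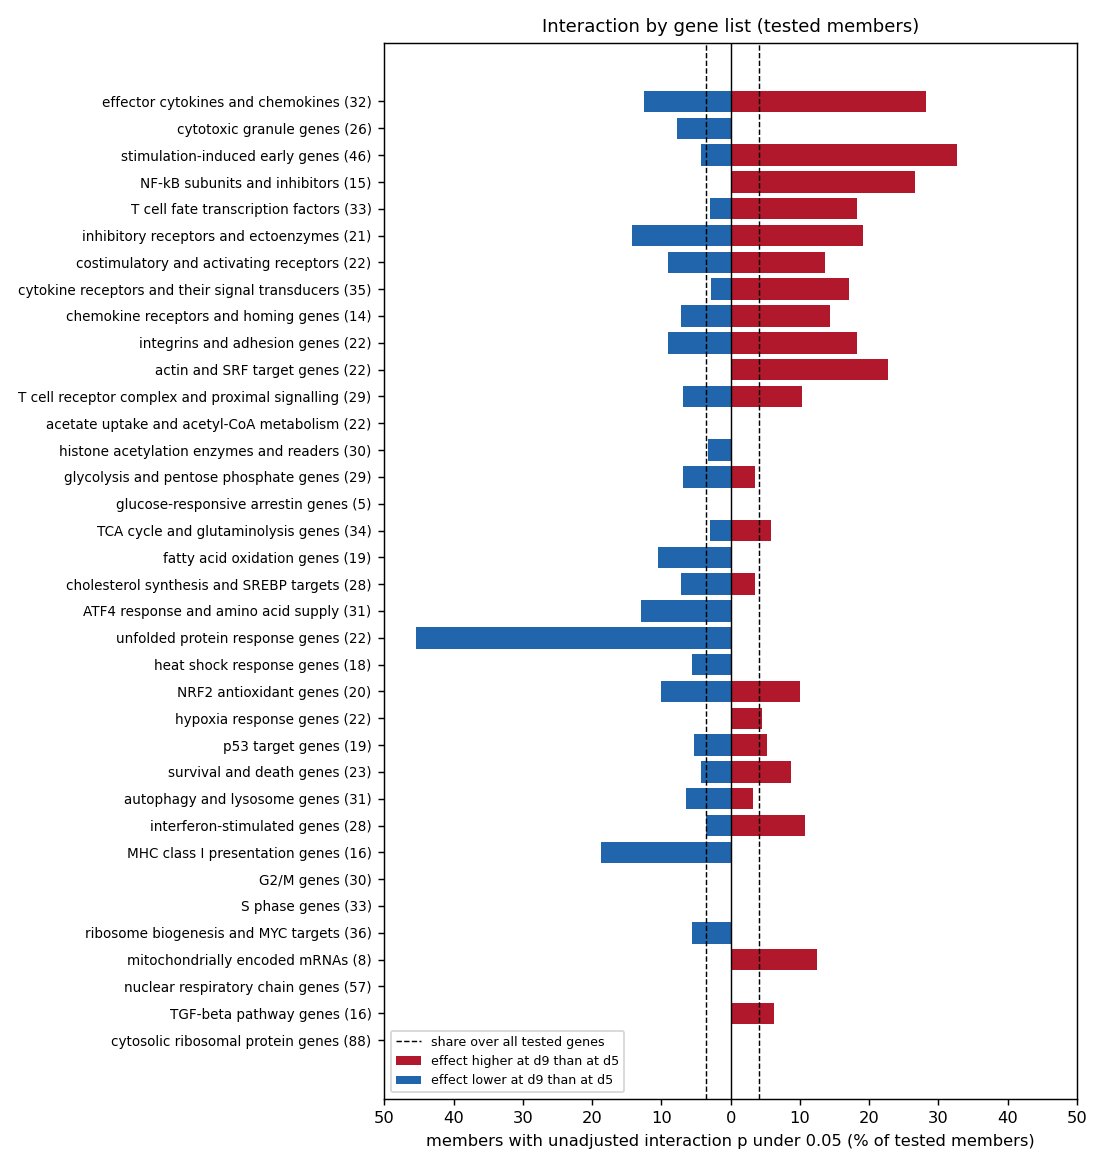
Percent of tested members with an unadjusted interaction p under 0.05 in each gene list, higher at d9 to the right and lower to the left, with the number tested in brackets. Dashed lines mark the shares over all genes, 4.12% and 3.58%. The unfolded protein response list reaches 45.5% on the lower side, and the early gene list has 15 of 46 members on the higher side.

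Genes listed as early genes of stimulation had the most members on the higher side, with 15 of 46 higher and 2 lower, and 38 of 46 positive. Every library was restimulated, so whether each member, Btg1 among them, was induced cannot be read here. Their median interaction was 0.65, with a median acetate effect of 0.40 at d9 and -0.14 at d5. All 46 passed the filter. By smallest p they were led by Jun and by Btg1, an antiproliferative gene, which had 616, 542 and 715 CPM in d9_Acetate, 570, 600 and 593 in d9_1mM, 294 and 261 in d5_Acetate, and 443 and 482 in d5_1mM. Btg1 fell at d5 (log2 -0.74, edgeR adjusted p = 0.039) and had an interaction of 0.82 ± 0.19. The 2 lower members were Batf, an AP-1 family factor, and Cd69, an activation marker.

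One library carried much of the d9 difference in some of these genes. Fosl2, an AP-1 subunit picked after its values were seen, had 122, 152 and 433 CPM in d9_Acetate, 90.2, 89.3 and 69.2 in d9_1mM, 48.9 and 53.8 in d5_Acetate, and 49.7 and 55.4 in d5_1mM. Replicate 3 of d9_Acetate was far above the others, and it was also the highest for Fosb, Nr4a2, Nr4a3 and Egr3. Without that replicate the early genes had 12 higher members of 46 and a median of 0.43. Without d5_Acetate replicate 2 there were 10 higher members. Without the 2 d9 libraries that stood apart there were 20 higher and 2 lower members, against a background of 11.1% and 5.78% in that setting.

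Other regulators of transcription were mostly on the same side. NF-kB subunits and inhibitors had 4 higher and 0 lower of 15, with Nfkbid (1.16 ± 0.34), an atypical inhibitor, and Rela (1.06 ± 0.37), a subunit, first. Without d5_Acetate replicate 2 there was 1 higher. T cell fate transcription factors had 6 higher and 1 lower of 33 tested and a median of 0.33. Myb, a factor of stem-like T cells, had 26.3, 25.5 and 28.5 CPM in d9_Acetate, 11.6, 14.9 and 12.4 in d9_1mM, 7.85 and 4.68 in d5_Acetate, and 9.38 and 8.53 in d5_1mM. Its libraries with acetate were the higher ones at d9 and the lower ones at d5, and its interaction was 1.56 ± 0.29 (edgeR adjusted p = 0.134). Bach2, a repressor of effector programmes, had 1.42 ± 0.44. The fate list had 12 higher and 2 lower members without the 2 d9 libraries.

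Surface receptors were split. Inhibitory receptors and ectoenzymes had 4 higher and 3 lower of 21, with Vsir and Nt5e, the ectonucleotidase CD73 (0.89 ± 0.26), first. Costimulatory and activating receptors had 3 higher and 2 lower of 22, with Cd27 and, on the lower side, Cd86 (-2.18 ± 0.51), a costimulatory ligand. Cytokine receptors and their signal transducers had 6 higher and 1 lower of 35, led by Socs3 (1.72 ± 0.40), a feedback inhibitor of cytokine signalling, and Ifnar2 (0.95 ± 0.22), a subunit of the type I interferon receptor. Chemokine receptors and homing genes, 14 of 20 tested, had 2 higher and 1 lower, with Cd44 (0.80 ± 0.22), the hyaluronan receptor, next to Cxcr3. T cell receptor and proximal signalling genes had 3 higher and 2 lower of 29, with the phosphatase gene Ptpn22 (1.14 ± 0.32) and the kinase gene Zap70 (0.51 ± 0.17) first. That count became 9 higher and 4 lower of 29 without the 2 d9 libraries, where 11.1% and 5.78% of all genes were.

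Actin and SRF target genes, 22 of 33 tested, had 5 higher and 0 lower members and a median of 0.30. Vcl, encoding vinculin, which links adhesions to actin, had 15.5, 9.48 and 16.3 CPM in d9_Acetate, 11.3, 16.0 and 17.5 in d9_1mM, 35.1 and 24.7 in d5_Acetate, and 122 and 98.9 in d5_1mM. The d9 groups overlapped, and both d5 libraries without acetate were the highest of all. Vcl fell at d5 (log2 -1.89, edgeR adjusted p = 0.0179) and had an interaction of 1.77 ± 0.36. Smtn, encoding smoothelin of smooth muscle, fell at d5 by 2.42 on the log2 scale (adjusted p = 0.0113) and had 2.10 ± 0.43. The list had 10 higher and 0 lower members without the 2 d9 libraries. Integrins and adhesion genes had 4 higher, Vcl among them, and 2 lower of 22.

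Unfolded protein response genes, the chaperones and folding enzymes of the endoplasmic reticulum, had 10 of 22 members on the lower side and 0 on the higher side, with 18 of 22 negative. Their median effect was -0.08 at d9 and 0.13 at d5, and their median interaction -0.32. Effects had opposite signs on the 2 days in 17 of 22. Hsp90b1, the chaperone GRP94, had 362, 312 and 284 CPM in d9_Acetate, 337, 298 and 307 in d9_1mM, 1099 and 1002 in d5_Acetate, and 654 and 638 in d5_1mM. It rose with acetate at d5 (log2 0.70, edgeR adjusted p = 0.0397), had 0.02 ± 0.11 at d9, and an interaction of -0.68 ± 0.18 (adjusted p = 0.322). Its exons overlap other genes on both strands.

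Hspa5, the chaperone BiP that keeps the sensors of this response inactive, had 3502, 3228 and 2852 CPM in d9_Acetate, 3620, 3102 and 3178 in d9_1mM, 4448 and 4663 in d5_Acetate, and 3067 and 2986 in d5_1mM. As with Hsp90b1, the d9 groups overlapped and the d5 groups did not. Its effects were -0.05 at d9 and 0.59 at d5 (edgeR adjusted p = 0.0718), with an interaction of -0.64 ± 0.19. The other members under an unadjusted p of 0.05 were Pdia3, Pdia4, Pdia6, Creld2, Herpud1, Dnajc3, Dnajb11 and Sdf2l1, folding enzymes, cochaperones and factors of protein quality control, with interactions of -0.59 to -0.36. The sensor genes Ern1, Eif2ak3 and Atf6 were positive, with no unadjusted p under 0.05 in edgeR with all libraries. Without d5_1mM replicate 2 the list had 3 lower members, in a setting with 1.97% of all genes on that side, without d5_Acetate replicate 1 it had 5 (2.73% of all genes), and without d9_Acetate replicate 3 or d9_1mM replicate 3 it had 6. It had 3 higher and 10 lower without the 2 d9 libraries that stood apart.

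**Figure D5:**
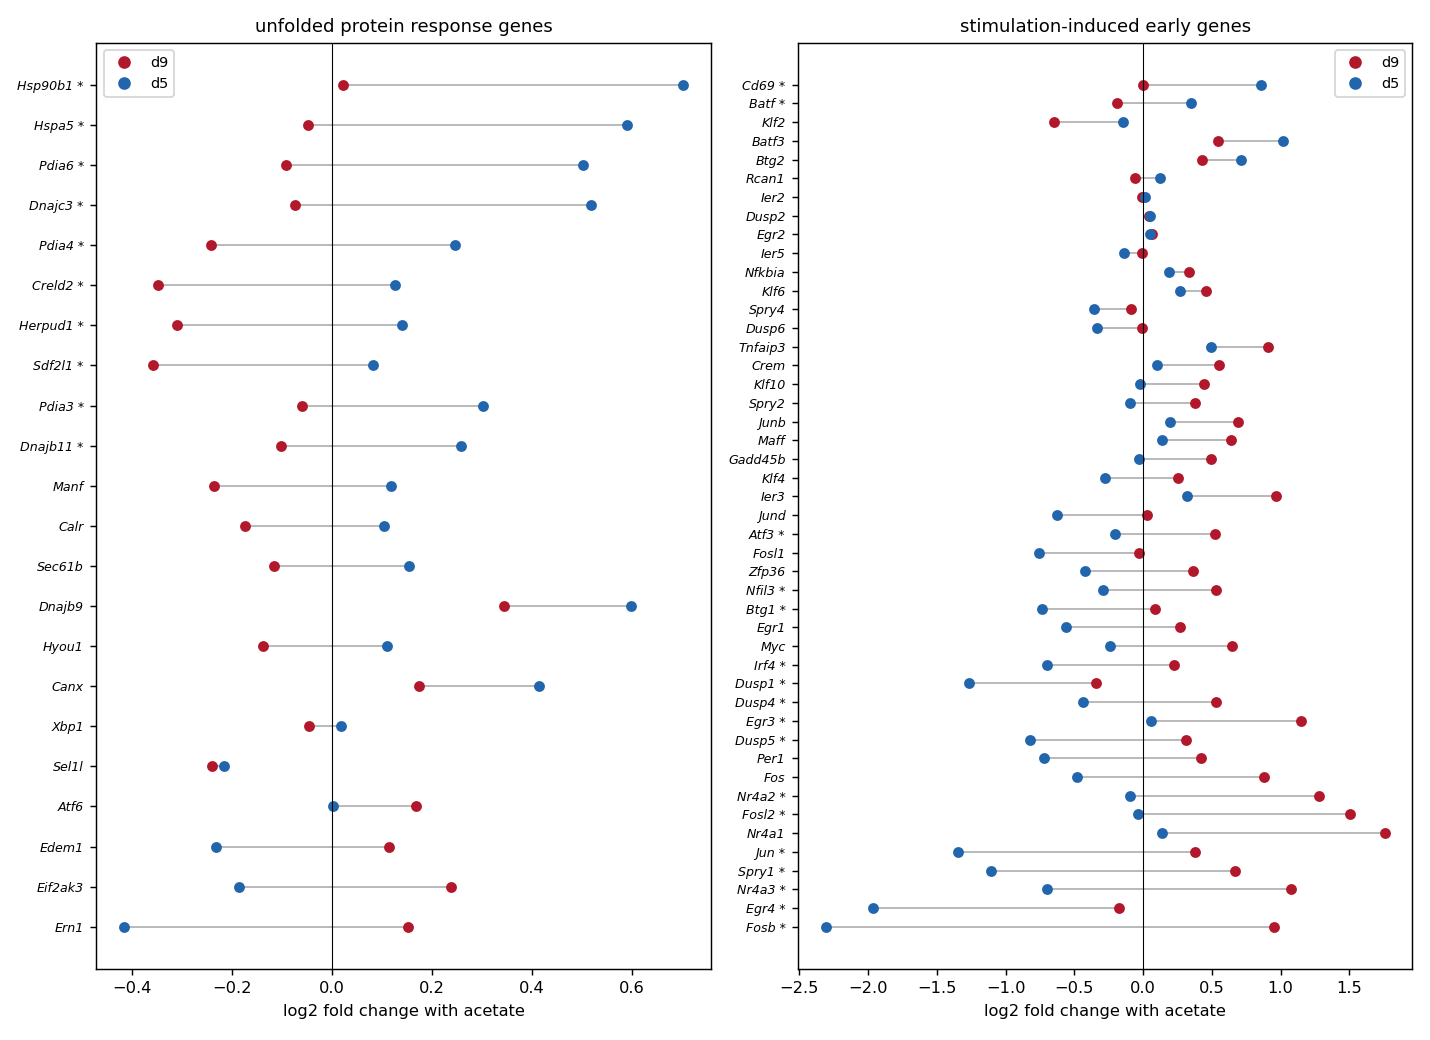
Log2 fold change with acetate at d9 (red) and d5 (blue) for the tested members of the unfolded protein response list (left) and the early gene list (right), ordered by the interaction, with asterisks at an unadjusted interaction p under 0.05. On the left 18 of 22 red points lie left of their blue points, and on the right 38 of 46 lie to the right.

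Genes of this response are known to carry the ER stress response element, written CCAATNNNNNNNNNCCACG, which is bound by ATF6 together with NF-Y. The element was looked for on both strands of the 250 bases before each RefSeq start (GRCm38.p6), and was chosen after the values were seen. It was present in 7 of the 19 list members with an entry (36.8%) and in 35 of 27025 genes in all (0.13%). Its presence describes the sequence and does not show binding. The list was written from known genes of this response, so that share does not bear on the acetate values. Of other motifs searched in the same windows, AP-1 (TGANTCA) was in 4 of 19 members and 7.82% of all genes. The core NFAT motif was in 10 of 19 and 58.8%, and the CArG core in 17 of 19 and 69.3%. A single exact form of the TATA box was in 0 of 19 and 14.3%. Variants of that form were not searched, so its absence does not show that a promoter lacks a TATA box. The 2 leading members are shown on their own strand, 5′ to 3′, with matches on either strand in capitals. They lie at chr2:34771840-34772089 (plus strand, 1 match) and chr10:86705445-86705694 (minus strand, 2 matches).
Hspa5: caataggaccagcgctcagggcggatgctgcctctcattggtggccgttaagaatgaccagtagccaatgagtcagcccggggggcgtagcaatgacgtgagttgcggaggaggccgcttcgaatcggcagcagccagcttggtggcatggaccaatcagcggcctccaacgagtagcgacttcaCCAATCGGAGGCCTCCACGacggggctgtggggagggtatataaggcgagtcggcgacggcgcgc
Hsp90b1: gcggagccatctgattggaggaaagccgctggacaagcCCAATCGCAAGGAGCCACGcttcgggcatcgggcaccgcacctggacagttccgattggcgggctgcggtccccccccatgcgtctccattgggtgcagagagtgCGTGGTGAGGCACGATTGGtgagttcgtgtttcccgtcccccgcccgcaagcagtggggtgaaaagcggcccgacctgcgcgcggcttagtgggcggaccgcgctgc

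Genes of acetate use had small interaction values. Acss2 had 15.8, 15.0 and 13.9 CPM in d9_Acetate, 25.5, 17.6 and 16.6 in d9_1mM, 4.54 and 4.79 in d5_Acetate, and 4.63 and 5.37 in d5_1mM. Its libraries with acetate were lower at d9 and overlapped the others at d5, and its interaction was -0.32 (interval -0.96 to 0.32), or -0.09 without the 2 d9 libraries. Acss1 had 0.02 (interval -0.61 to 0.65). Of the 22 acetate uptake and acetyl-CoA genes tested out of 28, 0 had an unadjusted p under 0.05 (the median was 0.01), with Bsg (-0.60 ± 0.28), which escorts monocarboxylate transporters, and Aldh2 (0.49 ± 0.26), which makes acetate from acetaldehyde, first. Histone acetylation enzymes and readers had 0 higher and 1 lower of 30, Hdac10 (-0.53 ± 0.16), followed by Hat1 (-0.37 ± 0.19). These counts were 2 higher and 1 lower of 22, and 6 higher and 2 lower of 30, without the 2 d9 libraries.

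Metabolic lists had 0 to 2 members on either side, apart from the ATF4 list. Glycolysis and pentose phosphate genes had 1 higher and 2 lower of 29, with the hexokinase gene Hk1 (1.03 ± 0.37) and the isomerase gene Rpia (-0.42 ± 0.17) first. For Hk1 replicate 3 of d9_Acetate stood at 320 CPM, against 149 and 176 in the other d9_Acetate libraries. Tricarboxylic acid cycle and glutaminolysis genes had 2 higher and 1 lower of 34, with Pcx (0.80 ± 0.30), pyruvate carboxylase, and Dld (-0.67 ± 0.29), a shared subunit of ketoacid dehydrogenases. Fatty acid oxidation genes had 0 higher and 2 lower of 19, Acadm (-0.69 ± 0.24) and Eci1 (-0.50 ± 0.21). Hypoxia response genes had 1 higher, Mxi1 (1.36 ± 0.61), a MYC antagonist, and 0 lower of 22. ATF4 response and amino acid supply genes had 0 higher and 4 lower of 31, led by the stress gene Nupr1 (-0.86 ± 0.26) and the folate enzyme gene Aldh1l2 (-0.83 ± 0.26).

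Growth and division genes had few members under the threshold. G2/M genes (30) and S phase genes (33) each had 0. Cytosolic ribosomal protein genes had 0 of 88 under the threshold but 83 of 88 negative, with a median of -0.28. Their share of counts was also what set the 2 d9 libraries apart. It was high in d5_Acetate replicate 2 as well (14.19%), which was kept when the 2 d9 libraries were left out. Without those 2 d9 libraries 28 of 88 were lower and the median was -0.31. With ribosomal protein share as a covariate 40 of 88 were positive and the median was -0.01. The part of ribosomal protein share in the other results was not tested beyond that covariate. Nuclear respiratory chain genes had 0 of 57 under the threshold and 50 negative, with a median of -0.20. Over all tested genes 48.9% were positive.

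Markers of CD8 T cells were all detected. They summed to 2125 to 2402 CPM in d9_Acetate, 2215 to 2326 in d9_1mM, 1936 to 1997 in d5_Acetate and 1663 to 1754 in d5_1mM. Of these 6 genes, Cd8a (-0.55 ± 0.19) and Cd3g (-0.62 ± 0.23) were on the lower side at an unadjusted p under 0.05, and Cd8a rose with acetate at d5 (log2 0.75, edgeR adjusted p = 0.0385). Of the markers of other lineages, those below 1 CPM in every group mean were 9 of 9 for erythroid cells and platelets, 9 of 10 for monocytes and macrophages, 8 of 9 for stroma and endothelium, 8 of 10 for B cells, 5 of 10 for dendritic cells, 5 of 9 for NK cells and 2 of 6 for CD4 T cells. C1qa, Clec9a and Col3a1 had 0 counts. Group means hide a difference between the 2 d5_Acetate libraries. In replicate 1, 2 of the 10 monocyte and macrophage markers had 0 counts, against 7 in replicate 2. Of the 9 erythroid and platelet markers 3 had 0 counts in replicate 1, against 7 in replicate 2, with sums of 2.19 and 1.21 CPM. The part of this difference in the d5 effects was not tested.

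NK cell markers summed to 70.6 to 89.0 CPM in d9_Acetate, 59.2 to 68.3 in d9_1mM, 16.4 to 19.2 in d5_Acetate and 12.2 to 15.4 in d5_1mM. These sums were higher with acetate on both days, and most of their counts were those of Eomes, Fcer1g and Klrb1c. Klrb1c averaged 20.95 CPM in d9_Acetate, 10.91 in d9_1mM, 5.471 in d5_Acetate and 1.496 in d5_1mM. In the same order Fcer1g averaged 22.96, 22.53, 6.18 and 5.379 CPM. Eomes averaged 34.09, 28.93, 3.883 and 5.606 CPM, and so was lower with acetate at d5. Eomes, a factor that effector CD8 T cells also use, had an interaction of 0.77 ± 0.26, and Klrb1c, a lectin-like receptor, -0.92 ± 0.36. Klrb1c rose with acetate at d5 (log2 1.86, edgeR adjusted p = 0.0224). The macrophage marker Cd68 averaged 6.10 CPM in d9_Acetate, 8.56 in d9_1mM, 4.48 in d5_Acetate and 10.3 in d5_1mM. Cd68 fell at d5 (log2 -1.20, edgeR adjusted p = 0.0228) and had an interaction of 0.71 ± 0.26. Pecam1, an adhesion molecule of endothelium and leukocytes, averaged 49.98 CPM in d9_Acetate, 33.9 in d9_1mM, 25.5 in d5_Acetate and 16.3 in d5_1mM, with an interaction of -0.09 ± 0.30. CD4 T cell markers summed to 137 to 171 CPM in d9_Acetate, 139 to 147 in d9_1mM, 154 to 172 in d5_Acetate and 124 to 138 in d5_1mM, mostly from Zbtb7b. Dendritic cell markers summed to 108.5 to 140.3 CPM in d9_Acetate, 114 to 133 in d9_1mM, 83.8 to 89.0 in d5_Acetate and 60.2 to 80.8 in d5_1mM, mostly from Zbtb46, Cd74 and H2-Ab1. H2-Ab1, a class II gene, had an interaction of -1.60 ± 0.52 (adjusted p = 0.487), with 17.3, 26.5 and 20.3 CPM in d9_Acetate, 29.2, 24.8 and 16.1 in d9_1mM, 7.68 and 12.6 in d5_Acetate, and 5.19 and 2.10 in d5_1mM. B cell markers summed to 85.8 to 119 CPM in d9_Acetate, 78.9 to 103 in d9_1mM, 201 to 210 in d5_Acetate and 142 to 173 in d5_1mM, mostly from Ighm. Cd79b, a subunit of the B cell receptor, averaged 0.979 CPM in d9_Acetate, 1.29 in d9_1mM, 3.29 in d5_Acetate and 1.05 in d5_1mM, and its interaction of -2.05 ± 0.46 passed in DESeq2 (adjusted p = 0.0412) and, without the 2 d9 libraries, in edgeR (adjusted p = 0.0492). Their part in the interaction values was not tested.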

How the data were processed

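Polyadenylated RNA of 10 samples was sequenced from stranded libraries, per the labels. The files hold raw counts per gene, deposited by the authors, and deepTools, STAR, featureCounts, DESeq2 and GRCm38 are named in the submitters' processing notes. Not given in the sources used here are their roles and versions, the annotation and whether counting used strand. Symbols and coordinates came from GENCODE M21 by identifier, and 105 unmatched genes held at most 0.00689% of a library.

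In edgeR 4.0.16 (R 4.3.3) filterByExpr by group left 13182 genes, and TMM set the scaling. A quasi-likelihood model with 4 group means (robust, 6 residual degrees of freedom, biological coefficient of variation 0.161) gave the interaction and both acetate effects. P-values are two-sided, with Benjamini-Hochberg adjustment over all genes at 0.05, except that DESeq2 left 1278 genes out of it for the interaction. SE is the absolute log2 fold change over the square root of F. CPM are TMM-scaled. The alternatives used DESeq2 1.42.0, limma 3.58.1, other scalings and filters, a replicate block, a covariate, and fewer libraries.

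Named genes were the 12 of smallest p in each direction with a mean log2 CPM of at least 1, a fixed set of 12 effector and acetate genes, and the 2 of smallest p per list. Lists needed at least 5 tested members. The members and lists were chosen with earlier results of these data known. The scripts were tested on simulated data in which 200 genes were changed before the filter on low counts. After it 12825 genes were tested, and 4 unchanged genes were called. Promoters are RefSeq's.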

Additional observations from a re-analysis of the deposited data

How the results depend on the processing

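The count of 0 for the day by acetate interaction moved to 99 with no filter beyond 1 count, 102 with the DESeq2 Wald test, 35 with ribosomal protein share as a covariate, and 255 without d9_1mM replicate 1 and d9_Acetate replicate 2 together. In that last setting the biological coefficient of variation was 0.115, against 0.161. It was 0 with DESeq2 size factors, library size only, a filter of 2 CPM, limma-voom, no robust fit and d9 replicates 1 and 2 only. Leaving out 1 library gave 0 to 1 (Sgms2 without d9_Acetate replicate 3, Emp1 without d9_1mM replicate 1). With the first 4 of these settings, in the order named, the acetate effect at d9 gave 197, 335, 953 and 213 calls against 4, and 0 with d9 replicates 1 and 2 only, and 0 to 18 leaving out 1 library. The acetate effect at d5 gave 578, 786, 1078 and 2162 against 201, 20 with d9 replicates 1 and 2 only, and 0 to 498 leaving out 1 library. The cause was not tested. Deviations from the group means had correlations of -0.392 to 0.329 between libraries of the same replicate number. With 2 or 3 libraries in a group, these values cannot show whether replicate numbers pair the samples. With a replicate block the interaction had 0 calls, 1011 genes at an unadjusted p under 0.05, and the d5 effect 62. With the replicate block within day the interaction, d9 and d5 effects all had 0. Acss1 was -0.0847 with d9 replicates 1 and 2 only. Leaving out 1 library its log2 interaction ran from -0.12 to 0.17, and that of Prf1 from -0.34 to 0.55. Depth was not varied, and its part in these counts was not tested. A lone d5 library was assumed to vary like the other groups.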

Other observations

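Smaller groups not described above were read against 4.12% higher and 3.58% lower over all genes, and none had a member past the adjusted threshold in edgeR with all libraries. MHC class I presentation genes had 0 higher and 3 lower of 16, among them Erap1 (-0.48 ± 0.18), which trims peptides for class I molecules. Interferon-stimulated genes had 3 higher and 1 lower of 28, with Ddx58 (0.57 ± 0.21), an RNA sensor, and Isg15 (-0.97 ± 0.37), a ubiquitin-like modifier, smallest in p. NRF2 antioxidant genes had 2 higher and 2 lower of 20. Srxn1, which restores peroxiredoxins, fell with acetate at d5 (log2 -0.92, edgeR adjusted p = 0.0243) and had an interaction of 0.74 ± 0.20, while Txnrd1, thioredoxin reductase, had -0.52 ± 0.17.

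Sterol synthesis and SREBP target genes had 1 higher and 2 lower of 28, Cyp51 (-0.58 ± 0.18), a sterol demethylase, and Insig1 (-0.45 ± 0.16), a sterol-regulated retention protein, being the lower ones. Among p53 targets (1 higher and 1 lower of 19), Perp had 6.87, 6.87 and 6.14 CPM in d9_Acetate, 9.85, 8.04 and 8.79 in d9_1mM, 5.32 and 5.68 in d5_Acetate, and 16.3 and 16.2 in d5_1mM. Acetate libraries were lower on both days, and Perp fell at d5 (log2 -1.56, edgeR adjusted p = 0.00714) with an interaction of 1.14 ± 0.21. Survival and death genes had 2 higher and 1 lower of 23, with Bcl2, which blocks apoptosis, at 0.76 ± 0.18 and Bbc3, which promotes it, at -0.50 ± 0.15. Autophagy and lysosome genes had 1 higher and 2 lower of 31, TGF-beta pathway genes 1 higher and 0 lower of 16, heat shock genes 0 higher and 1 lower of 18, and ribosome biogenesis and MYC targets 0 higher and 2 lower of 36. Without the 2 d9 libraries that stood apart, Npc1, a cholesterol exporter of the lysosome, Perp and Bcl2 passed in edgeR (adjusted p = 0.0174, 0.0263 and 0.0263), and they also passed in DESeq2 with all libraries (0.0248, 0.00378 and 0.0199). In that edgeR setting, where 11.1% of all genes were higher and 5.78% lower, the TGF-beta list had 5 higher and 0 lower and the ribosome biogenesis list 2 higher and 7 lower.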
